A study of Mus musculus with 32 samples.

Results

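The genes described here are the 6 Cyp4a genes of mouse liver in these data, Cyp4a10, Cyp4a14, Cyp4a31, Cyp4a32, Cyp4a12a and Cyp4a12b, together with Aldh3a2. They were chosen by name as the family that starts ω-oxidation and a dehydrogenase of its later steps, and they make up 7 of the 35523 genes counted. Liver mRNA was sequenced in 32 libraries, 4 in each of 8 groups: males (M) and females (F), wild-type (WT) or Nudt7-/- (KO), on a control diet (CD) or a western diet (WD). All animals carry the strain label C57BL/6J, were fed their diet from 6 weeks of age and were harvested at 17 to 20 weeks. The WD had 41% of its energy from fat and 0.2% cholesterol, and the CD 10% and 0%. The KO is a whole-body deletion of exons 3 and 4 of Nudt7, a peroxisomal CoA diphosphohydrolase, made by Cas9 injection into FVB zygotes and, as the study's methods describe, carried on from a single mosaic founder by backcrossing to C57BL/6J. Mice of the study were harvested either fed or after a fast, and the labels do not say which applies to these libraries. The labels number the samples of a group without naming the animals, so the p-values measure the spread between these samples.

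In ω-oxidation, a CYP4A enzyme of the endoplasmic reticulum hydroxylates the far end of a medium- or long-chain fatty acid, taking electrons from the reductase POR. Alcohol and aldehyde dehydrogenases then turn the hydroxyl into a second carboxyl, ALDH3A2 being the membrane-bound fatty aldehyde dehydrogenase, and the dicarboxylic acid is shortened largely in peroxisomes. Cyp4a10 and Cyp4a14 are textbook targets of the nuclear receptor PPARα, and the Cyp4a12 genes are known as male-predominant in mouse liver and kidney.

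Library totals ran from 10140048 to 15825078 counts, with a median of 13000302. Nudt7 averaged 32.6 to 141 CPM in the KO groups (counts relative to the library total, scaled by TMM factors here and below) and 131 to 511 CPM in the WT groups, and 0 of the 32 libraries went against their sex label over 4 Y-linked genes. The 8 hepatocyte markers, which define the labelled tissue, summed to at least 50280 CPM in every library. The 7 kidney tubule markers, listed because kidney also uses Cyp4a genes, summed to at most 0.178 CPM in any library. The 17 exocrine pancreas markers exceeded 20 times their median of 16.1 CPM in 4 female libraries, WTF-CD replicate 2 (7155 CPM, here without TMM factors), WTF-CD replicate 4 (1547), KOF-CD replicate 3 (3588) and WTF-WD replicate 4 (556). Where leaving these libraries out ends or gives a call of the 7 genes, the value without them is given too. The same holds where it moves a printed change by over 1.5 times in fold. Levels, spreads, shares, correlations, pooled ratios and list results include these libraries.

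The 6 Cyp4a genes stand in a cluster on chromosome 4 of GRCm38, in the order Cyp4a12a (chr4:115299046-115332815), Cyp4a12b (chr4:115411624-115439034), Cyp4a14 (chr4:115486200-115496142), Cyp4a10 (chr4:115518264-115533649), Cyp4a31 (chr4:115563649-115579015) and Cyp4a32 (chr4:115600969-115621602). Cyp4a14 lies on the minus strand and the other five on the plus strand. Aldh3a2 is on the minus strand of chromosome 11 (chr11:61223417-61267464). A motif for the haem-binding cysteine, which holds the iron of a cytochrome P450, was found in the coding sequence of 6 of 6 Cyp4a genes. For Cyp4a31 the transcript used was 202, chosen because its frame keeps the motif. The motif is not reported for transcript 201, which held 54.3% of the gene's counts. The 60 coding bases around that motif, which cross the junction of exons 11 and 12, are shown because they separate the family into 3 kinds. Capitals mark bases unlike Cyp4a10. With the intron between them, the bases span chr4:115529487-115532558 (plus strand) in Cyp4a10, chr4:115487284-115489820 (minus) in Cyp4a14 and chr4:115328971-115331861 (plus) in Cyp4a12a. Cyp4a31 and Cyp4a32 read as Cyp4a10, and Cyp4a12b as Cyp4a12a:
Cyp4a10: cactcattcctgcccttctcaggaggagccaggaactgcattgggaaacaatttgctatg
Cyp4a14: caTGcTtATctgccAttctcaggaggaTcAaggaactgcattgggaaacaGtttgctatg
Cyp4a12a: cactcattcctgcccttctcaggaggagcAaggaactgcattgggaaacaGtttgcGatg

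How far a read can be assigned to a copy depends on where the copies differ, and 90-base coding stretches in which the near-identical copies do differ are shown for that reason. The first set is from exon 6 of the Cyp4a12 genes, with capitals where Cyp4a12b (chr4:115432912-115433001) differs from Cyp4a12a (chr4:115326659-115326748), both on the plus strand:
Cyp4a12a: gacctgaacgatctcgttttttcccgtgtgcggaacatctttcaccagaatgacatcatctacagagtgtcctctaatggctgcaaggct
Cyp4a12b: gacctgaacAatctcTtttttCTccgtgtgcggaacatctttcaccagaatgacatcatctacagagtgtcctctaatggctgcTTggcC
The second set is from exon 2 of Cyp4a10 (chr4:115519630-115519719), Cyp4a31 (chr4:115565010-115565099) and Cyp4a32 (chr4:115602260-115602349), plus strand, with capitals where a gene differs from Cyp4a10:
Cyp4a10: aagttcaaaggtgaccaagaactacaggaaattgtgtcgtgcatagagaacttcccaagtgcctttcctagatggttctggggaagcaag
Cyp4a31: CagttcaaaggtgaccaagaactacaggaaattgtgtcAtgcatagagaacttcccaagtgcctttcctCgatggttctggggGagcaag
Cyp4a32: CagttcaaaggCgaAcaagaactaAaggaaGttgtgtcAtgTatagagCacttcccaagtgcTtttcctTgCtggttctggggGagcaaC

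Over the whole coding sequence, Cyp4a12a and Cyp4a12b differed at 23 of 1527 bases (98.5% identity), and their longest identical run was 342 bases, against paired reads of 50 bases. Cyp4a10 had 97.2% identity with Cyp4a32 and 96.6% with Cyp4a31, and every other pair except Cyp4a31 with Cyp4a32 (96.0%) stood between 75.8% and 80.3%. Of the 31-base words of the transcripts, 62.2% of Cyp4a12a and 62.9% of Cyp4a12b recurred in another gene, chiefly the other copy. The share was 45.5% for the main transcript of Cyp4a10, 65.3% for that of Cyp4a32 and 31% for Cyp4a31 transcript 201, but 2.07% for Cyp4a14 and 0% for Aldh3a2. The counts of Cyp4a14 and Aldh3a2 therefore come almost entirely from sequence of their own, while those of the other five rest in part on how the quantification divided shared reads, and their changes are also given for summed copies below. RefSeq promoter windows of 300 bases (GRCm38.p6) were at hand for 2 of the 7 genes, Cyp4a32 and Aldh3a2. Neither held the hexamer AGGTCA followed after 1 base by a second AGGTCA, with up to 2 mismatches on either strand, which 3.86% of 32851 windows held, nor TTCNNNGAA, which 8.3% held.

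Per length, Cyp4a10 and Cyp4a14 carried most Cyp4a transcript in females and on the WD, and the Cyp4a12 genes carried a large share in males alone. In WT males on the CD the levels in TPM, which divides by transcript length and so allows genes to be compared, were (mean ± SD, n = 4 here and below) 88.9 ± 72.3 for Cyp4a10, 87.7 ± 95.7 for Cyp4a14, 36.4 ± 21.3 for Cyp4a12a, 13.6 ± 4.49 for Cyp4a12b, 9.21 ± 2.15 for Cyp4a32 and 1.87 ± 1.19 for Cyp4a31, beside 82.8 ± 19.7 for Aldh3a2. In WT females on the same diet they were 275 ± 284 for Cyp4a10, 486 ± 550 for Cyp4a14, 7.41 ± 4.97 for Cyp4a32 and 6.32 ± 5.30 for Cyp4a31. Aldh3a2 was at 172 ± 55.1 there, with Cyp4a12a at 0.103 ± 0.0799 and Cyp4a12b listed at 0. The WTF-CD libraries below the pancreas limit, replicates 1 and 3, read 249 and 76.8 TPM for Cyp4a10 and 382 and 72.7 for Cyp4a14. Cyp4a12a and Cyp4a12b together gave 58.4 ± 19.5% of the Cyp4a TPM in KO males on the CD, 30.9 ± 20.9% in WT males on the CD, 25.9 ± 14.4% in WT males on the WD and 17.96 ± 9.60% in KO males on the WD. They gave at most 0.0528% in any female library. The sum of the 6 Cyp4a genes ran from 145 ± 18.4 TPM in KO males on the CD to 914 ± 307 in WT females on the WD.

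The first question was what the WD did to these genes in males. Aldh3a2 rose in both genotypes, to 2.70 times its CD mean in WT and 3.58 times in KO. Among WT males it read 236, 183, 165 and 160 CPM on the CD and 356, 573, 420 and 657 CPM on the WD. The groups did not overlap, and the change on the log2 scale was 1.45 ± 0.21 (SE) with an adjusted p of 0.00369 (edgeR quasi-likelihood test, Benjamini-Hochberg over all genes tested, as for every adjusted p below). Among KO males it read 147, 185, 128 and 211 CPM on the CD and 617, 657, 455 and 671 CPM on the WD. These groups did not overlap either, and the log2 change was 1.86 ± 0.18 with an adjusted p of 3.90e-04. In bulk tissue, fewer cells of a type and less RNA per cell cannot be told apart. The change in Aldh3a2 passed the threshold under each of the alternatives run and without each library in turn.

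Of the 7 genes, 3 passed the threshold in WT males, all higher on the WD, where 13.7% of 12235 genes passed in either direction. Besides Aldh3a2 these were Cyp4a12b (log2 change 1.72 ± 0.29, adjusted p 0.0120) and Cyp4a32 (0.97 ± 0.24, adjusted p 0.0275). In KO males 3 of 7 passed, again all higher, against 2.6% of 12407 genes: Aldh3a2, Cyp4a10 (3.67 ± 0.44, adjusted p 0.00641) and Cyp4a31 (1.74 ± 0.36, adjusted p 0.0371). The median log2 change of the 7 genes was 1.45 in WT and 1.74 in KO males, beside 0.01 over all genes in each.

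Cyp4a10 showed its clearest change in KO males. It read 33.4, 51.7, 55.0 and 61.5 CPM in KO males on the CD and 270, 705, 469 and 1091 CPM in KO males on the WD. Every WD library stood above every CD library, and the WD mean was 12.6 times the CD mean. In WT males the same gene read 287, 225, 68.6 and 36.1 CPM on the CD and 324, 930, 219 and 554 CPM on the WD. Here the groups overlapped, since the 2 highest CD libraries exceeded the lowest WD library, and the log2 change of 1.73 ± 0.80 did not pass (adjusted p 0.213). The difference between the diet effects, KO less WT males, was 1.94 ± 0.92 on the log2 scale with an adjusted p of 0.402, so the data did not show that the genotypes responded differently. In that contrast 0 of 7 genes passed with edgeR or DESeq2 (2 at an unadjusted p under 0.05, as were 1613 of all genes), where 0.0591% of 13539 genes did with edgeR.

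Cyp4a14, the other strongly PPARα-responsive member, had the highest CV (SD over mean) of the 7 genes in each of the 4 male groups. In WT males it read 213, 369, 22.1 and 14.9 CPM on the CD and 60.6, 946, 114 and 674 CPM on the WD, overlapping groups with a log2 change of 1.54 ± 1.35 (adjusted p 0.506). In KO males it read 11.5, 41.4, 6.67 and 83.3 CPM on the CD and 195, 383, 358 and 1122 CPM on the WD. These groups were separate, and the log2 change of 3.88 ± 0.99 missed the threshold (adjusted p 0.107), although DESeq2 on the same sums called it (adjusted p 0.00124), as did the model of all 32 libraries (adjusted p 0.0329).

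**Figure D1:**
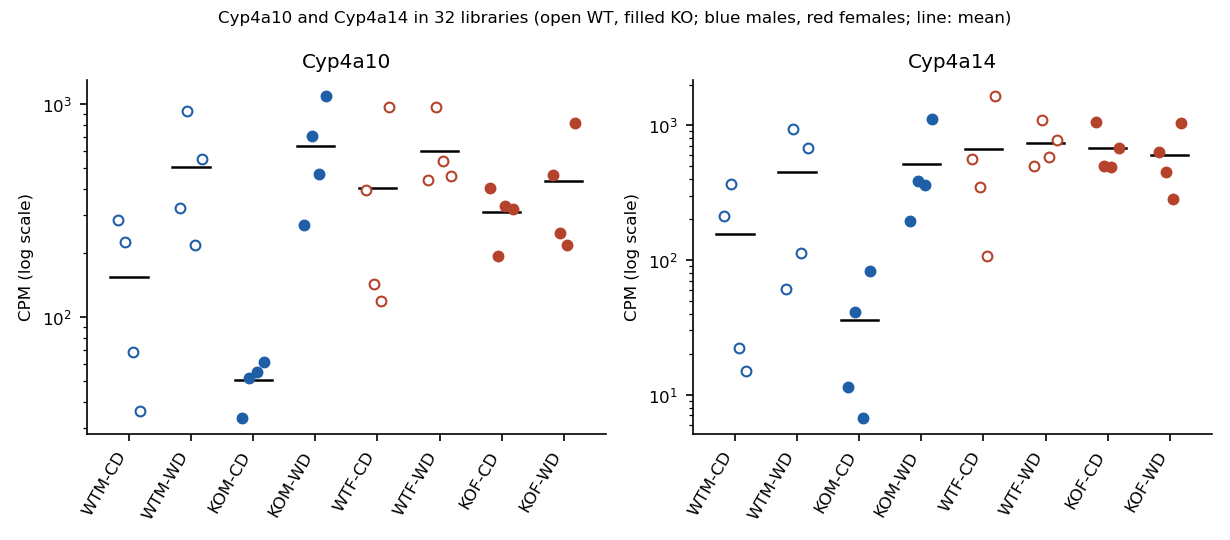
CPM of Cyp4a10 (left) and Cyp4a14 (right) on a log axis in the 8 groups of 4 libraries, each point a library and each line the group mean (open WT, filled KO, blue males, red females). KO males on the CD had the lowest means of both genes (50.4 and 35.7 CPM), and the 4 libraries of WT males on the CD spread over 7.95 times for Cyp4a10 and 24.8 times for Cyp4a14.

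Cyp4a12b, and the sum of the Cyp4a12 genes, rose with the WD in WT males. Cyp4a12b read 16.5, 18.1, 33.0 and 36.1 CPM on the CD and 113, 67.9, 81.0 and 76.3 CPM on the WD, without overlap. Cyp4a12a read 43.9, 122, 43.7 and 65.2 CPM on the CD and 161, 149, 152 and 203 CPM on the WD, also without overlap, and its log2 change of 1.28 ± 0.36 stood just outside the threshold (adjusted p 0.0564). It passed with DESeq2 on gene sums (adjusted p 0.00708) and with length offsets (6.34e-04), in the model of all 32 libraries (0.00507), and without the highest CD library, WTM-CD replicate 2 (1.72, 0.00104). Since the copies share most of their sequence, their sum is the firmer value, and it rose by 1.42 ± 0.24 (adjusted p 0.00948). In KO males the sum changed by 0.42 ± 0.29 (adjusted p 0.508), and neither copy passed. For the sum, the difference of the diet effects, KO less WT, was -0.999 ± 0.341, which did not pass (adjusted p 0.255).

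The 2 minor genes were less certain. Cyp4a32 read 8.66, 8.64, 8.36 and 14.1 CPM in WT males on the CD and 14.7, 26.1, 21.5 and 14.3 CPM on the WD. All 4 WD libraries stood above all 4 CD libraries, the closest at 14.3 against 14.1 CPM. The call ended with edgeR and length offsets (adjusted p 0.0983), in the model of all 32 libraries (0.0925), with the replicate number as a block (0.0793), without the filter on low counts (0.0734) and without any of WTM-CD replicates 1 (0.0694), 2 (0.0628) and 3 (0.0826) or WTM-WD replicate 3 (0.0776). Summed with Cyp4a10 and Cyp4a31, with which it shares reads, it gave 1.68 ± 0.73 (adjusted p 0.185). Among KO males Cyp4a32 changed by 0.90 ± 0.28 with overlapping groups (adjusted p 0.141), which DESeq2 on gene sums called (0.0287). Cyp4a31 read 1.90, 2.41, 3.13 and 1.89 CPM in KO males on the CD and 4.70, 5.52, 6.72 and 14.2 CPM on the WD. That call ended without any of KOM-CD replicates 1 (adjusted p 0.103), 2 (0.102), 3 (0.0608) and 4 (0.0963) or KOM-WD replicate 3 (0.0686), and in the model of all 32 libraries (0.0633). The sum of Cyp4a10, Cyp4a31 and Cyp4a32 in KO males rose by 3.41 ± 0.41 (adjusted p 0.00577). Among WT males Cyp4a31 changed by 0.94 ± 0.70 with overlapping groups (adjusted p 0.430).

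In females Aldh3a2 was the only member to pass between the diets, and with a smaller change than in males. Of the 5 genes that passed the count filter in females, 0 passed the test in WT females (1 at an unadjusted p under 0.05, as were 1078 of all genes, and 0 with DESeq2), where 0.0785% of 12737 genes did, and 1 in KO females, where 0.125% of 12840 did. Cyp4a12a and Cyp4a12b were too low there to be tested. Aldh3a2 read 294, 251, 284 and 287 CPM in KO females on the CD and 466, 422, 410 and 432 CPM on the WD. The groups were far apart for their spread, and the log2 change was 0.64 ± 0.09 (adjusted p 0.0293). The call ended without KOF-CD replicate 2 (adjusted p 0.0785) or 4 (0.0732), or KOF-WD replicate 1 (0.141), 2 (0.0571) or 3 (0.125), with the log2 change between 0.59 and 0.66 in each case. It also ended in the model of all 32 libraries (0.63 ± 0.18, adjusted p 0.112) and with the replicate number as a block (0.0598).

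In WT females Aldh3a2 read 305, 265, 265 and 459 CPM on the CD and 527, 556, 551 and 440 CPM on the WD. A single CD library, WTF-CD replicate 4, reached above a WD library, WTF-WD replicate 4, and both belong to the 4 with exocrine pancreas transcripts. The log2 change was 0.68 ± 0.18 (adjusted p 0.331) over all libraries and 0.94 ± 0.12 (adjusted p 0.0151) without those libraries. Their part in the result was not tested further.

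Cyp4a10 and Cyp4a14 overlapped widely between the diets in females. On the CD, KO females stood above KO males in both genes without overlap, but the WT sexes overlapped. Cyp4a10 read 394, 143, 119 and 967 CPM in WT females on the CD and 442, 969, 539 and 461 on the WD, a log2 change of 0.57 ± 0.72. In KO females it read 403, 193, 331 and 320 CPM on the CD and 466, 248, 218 and 815 on the WD, a change of 0.49 ± 0.46. Cyp4a14 changed by 0.15 ± 0.78 in WT and by -0.17 ± 0.44 in KO females. None of the 4 values passed (adjusted p 0.820 to 0.967). Without the libraries with pancreas transcripts the changes of Cyp4a10 and Cyp4a14 in WT females were 1.34 ± 0.73 (adjusted p 0.569) and 1.12 ± 0.93 (0.719). Cyp4a31 and Cyp4a32 had negative values in KO females, -0.73 ± 0.36 (adjusted p 0.563) and -0.81 ± 0.30 (adjusted p 0.417), and the diet groups of Cyp4a32 did not overlap there. The same held for 5.79% of all genes tested in KO females.

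The diet effect itself differed between the sexes for Aldh3a2. Taken as the mean of both genotypes, it was lower in females than in males by 0.98 ± 0.18 on the log2 scale (adjusted p 0.00963), and by 0.85 ± 0.18 (adjusted p 0.0323) without the 4 libraries with pancreas transcripts. It was the only one of the 7 genes to pass in this contrast, where 0.244% of 13539 genes passed. Cyp4a12a and Cyp4a12b had at most 5 counts in any female library. Their diet effect in females was therefore poorly measured, here and in the contrast of KO less WT females below. The same difference was -2.16 ± 0.65 for Cyp4a10 (adjusted p 0.184), -2.71 ± 0.96 for Cyp4a14 (0.268), -1.74 ± 0.52 for Cyp4a31 (0.177) and -1.28 ± 0.36 for Cyp4a32 (0.149). These were larger values with larger errors. DESeq2 on the same sums called Cyp4a10 (adjusted p 0.0406) and Cyp4a32 (0.0245) besides Aldh3a2, and with length offsets it called Cyp4a10 (0.0430), Cyp4a14 (0.0484) and Cyp4a31 (0.0412). The diet effect in KO less that in WT females passed for 0 of 7 genes and 0% of 13539 genes with edgeR, with 581 genes and 0 of the 7 at an unadjusted p under 0.05. DESeq2 called 5 genes in that contrast, none of them among the 7.

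**Figure D2:**
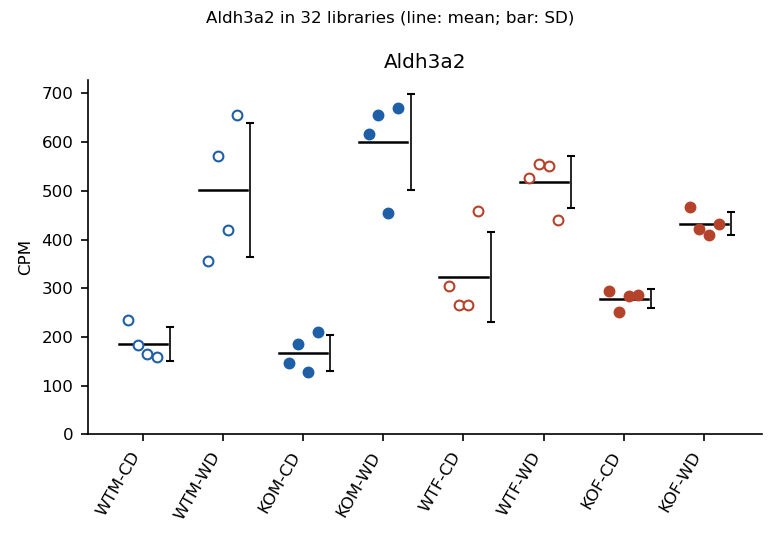
CPM of Aldh3a2 in the 8 groups, each point a library, with the group mean (line) and SD (bar). The means rose from 186 to 501 CPM in WT males and from 168 to 600 CPM in KO males, and from 324 to 519 and from 279 to 433 CPM in WT and KO females.

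Between KO and WT, none of the 7 genes passed the threshold in any of the 4 sex and diet strata with edgeR. Cyp4a12a and Cyp4a12b were too low for the count filter in females. The share of all genes that passed was 0.00814% of 12289 in CD males, 0.0162% of 12319 in WD males, 0.0314% of 12753 in CD females and 0.0156% of 12824 in WD females. At an unadjusted p under 0.05, the count among the 7 was 0, 1, 1 and 2 in these comparisons, and 1197, 1194, 876 and 981 among all genes tested. Aldh3a2 differed between KO and WT by -0.14 ± 0.17 in CD males, 0.27 ± 0.20 in WD males, -0.22 ± 0.18 in CD females and -0.26 ± 0.10 in WD females, all as log2 values. Cyp4a10 had larger errors on the CD, with -1.61 ± 0.68 in males (adjusted p 0.517) and -0.38 ± 0.69 in females (0.958). In WT females on the CD the highest library for Cyp4a10 and Cyp4a14, WTF-CD replicate 4, carried pancreas transcripts, and without the libraries of this kind the estimate for Cyp4a10 turned to 0.25 ± 0.66 (adjusted p 0.980) and that for Cyp4a14 went from 0.02 ± 0.78 to 1.15 ± 0.88 (0.997 and 0.925).

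Cyp4a32 was the exception in its values. On the CD it read 8.43, 3.12, 4.14 and 12.0 CPM in WT females and 38.8, 15.2, 15.99 and 29.7 CPM in KO females. On the WD it read 4.17, 9.60, 5.99 and 9.90 CPM in WT and 13.9, 13.2, 14.8 and 14.7 CPM in KO females. All 8 KO libraries stood above all 4 WT libraries of their diet, and above all 8 WT female libraries. KO and WT female groups were without overlap, in either direction, for 4.42% of all genes tested on the CD and 4.34% on the WD. The log2 differences were 1.83 ± 0.49 on the CD (edgeR adjusted p 0.697) and 0.92 ± 0.23 on the WD (0.395), and without the libraries with pancreas transcripts 2.15 ± 0.57 (0.816) and 1.08 ± 0.23 (0.122). DESeq2 on gene sums called both (adjusted p 0.0105 and 0.0232), and the model of all 32 libraries called the first (0.0455). In that model a contrast chosen after these values were seen, the mean of both diets, gave 1.38 ± 0.26 (adjusted p 0.0240, with 0.096% of 13539 genes passing). That call ended with length offsets (adjusted p 0.0572), without the filter on low counts (0.0587), and without KOF-CD replicate 1 (0.0594), WTF-WD replicate 1 (0.0658) or 3 (0.0782), or KOF-WD replicate 3 (0.0616). Without the 4 libraries with pancreas transcripts it was 1.61 ± 0.28 (adjusted p 0.0244).

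In males Cyp4a32 differed between KO and WT by 0.06 ± 0.18 on the CD and by -0.01 ± 0.33 on the WD. The difference between the sexes in the genotype effect, 1.36 ± 0.36, did not pass (adjusted p 0.206), and neither did any other gene (0% of 13539 with edgeR, 48 genes with DESeq2, 1501 genes at an unadjusted p under 0.05). As a share of the Cyp4a TPM, Cyp4a32 made up 1.39 ± 0.78% in WT and 3.67 ± 0.54% in KO females on the CD, and 0.96 ± 0.29% and 2.78 ± 1.49% on the WD. The sum of Cyp4a10, Cyp4a31 and Cyp4a32, in which Cyp4a32 is a small part, went the other way between genotypes, by -0.36 ± 0.43 (adjusted p 0.811). Whether Cyp4a32 itself or the division of the reads it shares differed between the genotypes was not tested.

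**Figure D3:**
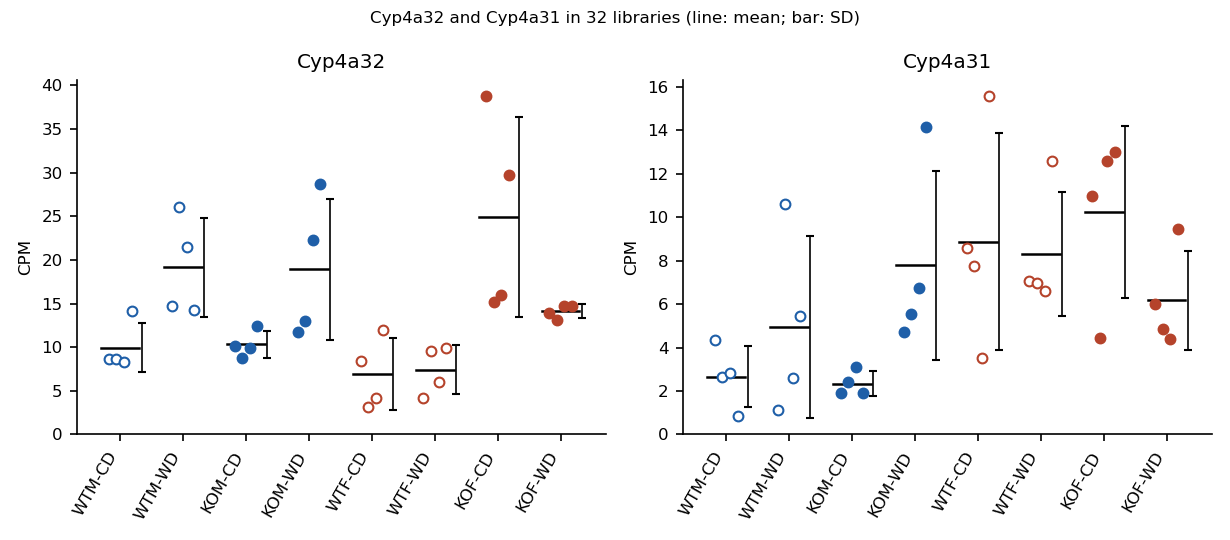
CPM of Cyp4a32 (left) and Cyp4a31 (right) in the 8 groups, each point a library, with the group mean (line) and SD (bar). The 8 libraries of KO females lie between 13.2 and 38.8 CPM of Cyp4a32 and the 8 of WT females between 3.12 and 12.0, while Cyp4a31 overlaps between the genotypes in every stratum.

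The largest differences in the family were those between the sexes in the Cyp4a12 genes. Cyp4a12a read 43.7 to 203 CPM in the 16 male libraries and at most 0.328 CPM in the 16 female libraries, and Cyp4a12b 16.5 to 113 CPM and at most 0.324 CPM. With counts pooled over the 4 libraries of a group, Cyp4a12a was 379 times higher in WT males than in WT females on the CD (3351 against 9 counts, 95% exact binomial interval 199 to 829) and 1898 times higher in KO males than KO females on the CD (5246 against 3 counts, interval 649 to 9206). Intervals and floors cover counting error only. Cyp4a12b had 0 counts in 8 of 8 WT female libraries, so that it was at least 404-fold higher in WT males on the CD and at least 1466-fold higher on the WD, against a floor of 3 counts over the female group. KO females on the CD held 11 counts of Cyp4a12b, at least 1 in each library, and 3 of Cyp4a12a. With most 31-base words shared, so few reads do not tell the copies apart firmly.

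**Figure D4:**
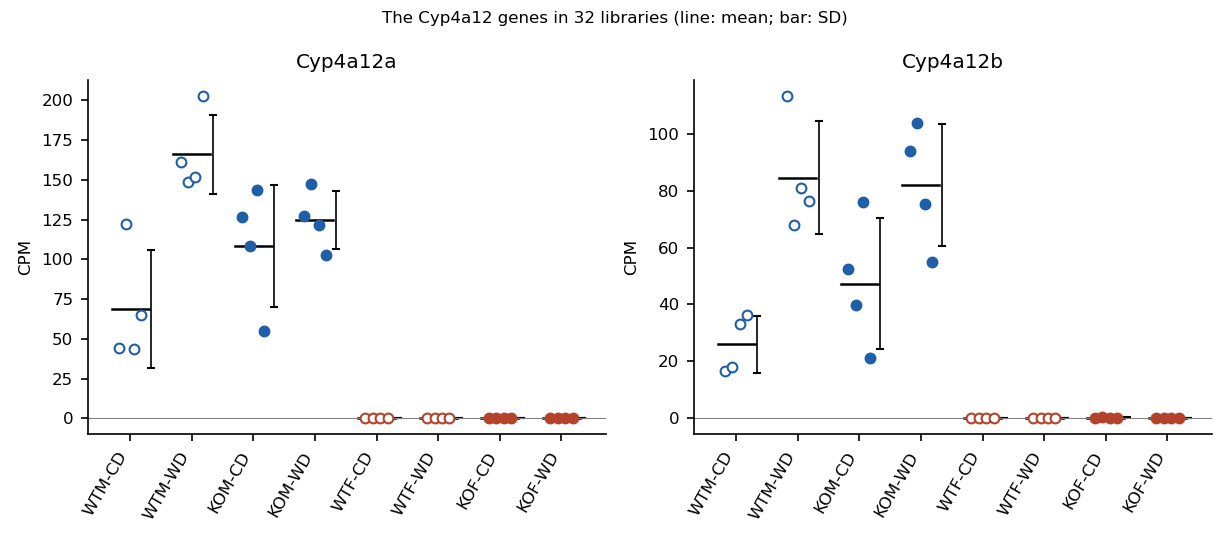
CPM of Cyp4a12a (left) and Cyp4a12b (right) in the 8 groups, each point a library, with the group mean (line) and SD (bar). All 16 female libraries lie at or next to 0, and WT males on the CD have the lowest male means (68.7 and 25.9 CPM).

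Between females and males, 2 of 7 genes passed in WT on the CD, both lower in females, where 2.24% of 12505 genes passed. In WT on the WD 3 of 7 passed, all lower in females, against 9.64% of 12524 genes. In KO on the WD 2 of 7 passed, both lower, against 9.66% of 12708. In KO on the CD, 7 of 7 passed, against 6.66% of 12566, with the Cyp4a12 genes lower and the other five higher in females. Cyp4a12a and Cyp4a12b were among the genes called in all 4 comparisons. They had at most 5 counts in any female library, so they passed the filter of 10 counts only through the males. A call higher in females was therefore not possible for them, and their part in these counts is no test against the shares of all genes.

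The KO comparison on the CD sets the low KO males against females. Cyp4a10, at 33.4 to 61.5 CPM in males and 193 to 403 CPM in females, differed by 2.63 ± 0.25 on the log2 scale (adjusted p 2.02e-04). Cyp4a14, at 6.67 to 83.3 CPM and 490 to 1052 CPM, differed by 4.26 ± 0.88 (adjusted p 0.0382). Both were without overlap, as were 15.1% of all genes tested in this comparison. Cyp4a31 differed by 2.13 ± 0.33 (adjusted p 0.00381), Aldh3a2 by 0.74 ± 0.15 (0.0132) and Cyp4a32 by 1.27 ± 0.31 (0.0429). The call of Cyp4a14 ended without any library but KOM-CD replicates 3 and 4 (adjusted p 0.0651 to 0.0901), without the filter on low counts (0.0727) and without the library with pancreas transcripts, KOF-CD replicate 3 (0.0651). That of Cyp4a32 ended without the filter (adjusted p 0.111) and without any library but KOF-CD replicates 2 and 3 (0.0517 to 0.114).

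In WT on the CD, females stood above males by 1.39 ± 0.96 for Cyp4a10 and 2.10 ± 1.32 for Cyp4a14, values of the same sign as in KO with errors that did not allow a call (adjusted p 0.578 and 0.537). Without both WTF-CD libraries with pancreas transcripts these were 0.75 ± 1.06 and 1.12 ± 1.59. Aldh3a2 stood 0.81 ± 0.20 higher (adjusted p 0.0638). The groups did not overlap, as was the case for 10.1% of all genes tested there. Aldh3a2 passed without WTM-CD replicate 1 (0.0451) or WTF-CD replicate 2 (0.0420). It also passed with DESeq2 on gene sums (0.00331) and with length offsets (0.00112), and in the model of all 32 libraries (0.00754). With edgeR it passed under length offsets (0.0433) and without the filter on low counts (0.0331). Leaving out both WTF-CD libraries with pancreas transcripts gave 0.63 ± 0.16 for Aldh3a2 (adjusted p 0.0794). Cyp4a31 stood 1.73 ± 0.53 higher (adjusted p 0.174), which DESeq2 on gene sums called (0.00495). Its value was 1.18 ± 0.57 (adjusted p 0.364) without those libraries. On the WD, Cyp4a10 differed by 0.27 ± 0.48 in WT and -0.54 ± 0.57 in KO. Aldh3a2 differed there by 0.06 ± 0.18 in WT and -0.48 ± 0.14 in KO (adjusted p 0.0508). The KO value passed with DESeq2 on gene sums (0.00432) and with length offsets (0.0115). It also passed with RLE in place of TMM factors (0.0498) and without KOM-WD replicate 3 (0.0179). Cyp4a32 in WT on the WD was lower in females by 1.35 ± 0.30 on the log2 scale (adjusted p 0.0258). That call ended without the filter (0.0799) and without WTM-WD replicate 2 (0.0530) or 3 (0.0696) or WTF-WD replicate 3 (0.0810), and the sum of Cyp4a10, Cyp4a31 and Cyp4a32 had the opposite sign (0.24 ± 0.46, adjusted p 0.793).

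Ordered by mean CPM over the 8 groups, Cyp4a10 ran from KO males on the WD (634 ± 353 CPM) to KO males on the CD (50.4 ± 12.0), and every neighbouring pair of groups overlapped. Cyp4a14 ran from WT females on the WD (738 ± 267) to KO males on the CD (35.7 ± 35.2), again with every neighbouring pair overlapping. Aldh3a2 ran from KO males on the WD (600 ± 99.1) to KO males on the CD (168 ± 37.4), and the only step without overlap lay between KO females on the CD (279 ± 19.1) and WT males on the CD (186 ± 34.5). For Cyp4a12a the separate steps were those between WT males on the WD (166 ± 24.9) and KO males on the WD (125 ± 18.3), and between the lowest male and the highest female group.

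The spread between libraries of a group was wide for Cyp4a10 and Cyp4a14, as a description. The coefficient of variation (CV) of Cyp4a14 was 36.2% to 110% over the 8 groups, while the median CV of the 398 genes within a factor of 2 of its mean CPM was 9.19% to 15.6%. The CV of Cyp4a10 was 23.8% to 97.3%, beside medians of 8.84% to 15.2% over 513 genes. Aldh3a2, at 5.60% to 28.5%, had 538 like genes with medians of 8.84% to 15.2%. It lay below the median of these genes in 3 of 8 groups (KOF-CD, WTF-WD and KOF-WD) and was highest in WTF-CD and WTM-WD (28.5% and 27.5%). In WT males on the CD, Cyp4a14 ranged over 24.8 times between its lowest and highest library, Cyp4a10 over 7.95 times, Cyp4a12a over 2.79 times and Aldh3a2 over 1.47 times.

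Much of this spread was shared between members. Cyp4a10 and Cyp4a14 had 76.8% identity over their aligned coding bases, but their longest identical run there was 23 bases, against reads of 50 bases. Each group's mean was taken off log2(CPM + 1). The deviations of Cyp4a10 and Cyp4a14 then correlated over the 32 libraries with r = 0.84 and rho = 0.86. The adjusted p was 2.1e-04 for each (permutation test within groups, two-sided, Benjamini-Hochberg over the 21 pairs computed). With 100000 permutations, the smallest raw p possible was 1e-05. Without the 2 libraries farthest from the median of Cyp4a10, WTM-CD replicate 4 and WTF-CD replicate 4, r was 0.81. In males alone r was 0.84 and in females 0.91. Aldh3a2 followed Cyp4a14 with r = 0.77 and rho = 0.74 (permutation test, adjusted p 0.0013 and 0.00215; r = 0.79 without the 2 farthest libraries) and Cyp4a10 with r = 0.67 and rho = 0.66 (0.0013 and 0.00215; r = 0.59).

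Cyp4a12b moved against Cyp4a14 and Aldh3a2, and less firmly against Cyp4a10. Its deviations correlated with those of Cyp4a14 at r = -0.75 and rho = -0.73 over the 32 libraries (permutation test, adjusted p 4.2e-04 and 0.00245; r = -0.77 without the 2 farthest libraries) and with those of Aldh3a2 at r = -0.57 and rho = -0.53 (0.0135 and 0.0299; r = -0.46). With Cyp4a10 the values were r = -0.44 and rho = -0.45 (permutation test, adjusted p 0.0452 and 0.0775), so that rho did not pass. The female libraries hold next to no counts of Cyp4a12b, so these values rest on the 16 male libraries. In males r was -0.86 for Cyp4a14, -0.68 for Aldh3a2 and -0.61 for Cyp4a10. Cyp4a12a, the near-identical copy, gave r = -0.05 with Cyp4a14 in the same 16 libraries, and the sum of the copies r = -0.35. The part of read sharing between the copies in this difference was not tested. Of the 21 pairs, 9 passed at an adjusted p under 0.05 for r and 7 for rho.

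**Figure D5:**
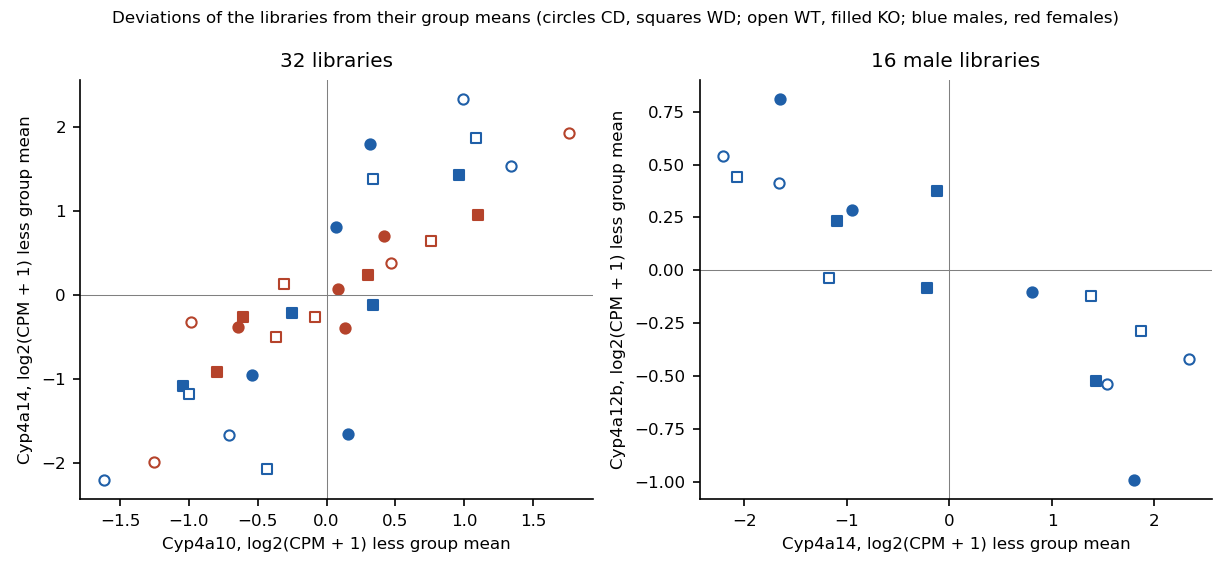
Deviations from the group mean of log2(CPM + 1), each point a library (circles CD, squares WD, open WT, filled KO, blue males, red females). Left, Cyp4a14 against Cyp4a10 in 32 libraries (r = 0.84), and right, Cyp4a12b against Cyp4a14 in the 16 male libraries (r = -0.86).

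Of the 12240 other genes with a mean of at least 1 CPM, those most like Cyp4a10 in the same deviations over the 32 libraries included Retsat (r = 0.87) and the mitochondrial fatty acid oxidation genes Acadm (0.82), Hadhb (0.81) and Etfdh (0.80). Those most like Cyp4a14 were Retsat (0.83), Acadl (0.82), Abcb6 (0.81), Acot1 (0.80) and Cyp2c68 (0.76). For Aldh3a2 they were Acot2 (0.75), Crat (0.74), Vldlr (0.74), Bcl2l13 (0.73) and Abcd2 (0.73). For Cyp4a12a they were Lipo3 (0.64), Trdmt1 (0.61), Stx17 (0.59), Fignl2 (0.59) and Wipi1 (0.59), values lower than those of the other 3 members. The female libraries hold next to no counts of Cyp4a12a, so its values rest on the males and are not fully comparable. Without the 2 libraries farthest from the median of Cyp4a12a, Lipo3 stayed at 0.64. Trdmt1, Stx17, Fignl2 and Wipi1 fell to between 0.41 and 0.49. The r values over the 32 libraries are the highest of many and are given as a description.

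The other enzymes of ω-oxidation and their electron donors, a list of 24 genes, went in both directions. In WT males on the WD 3 of the 17 tested were higher and 2 lower, with a list median of 0.08 on the log2 scale. Cyp4f15, another fatty acid ω-hydroxylase, rose by 0.71 ± 0.10 (adjusted p 0.00258) and Por, the reductase that feeds electrons to the CYP4A enzymes, by 1.10 ± 0.21 (0.0120), while Cyb5r3, the cytochrome b5 reductase, fell by 1.02 ± 0.13 (0.00144). In KO males 2 of 17 were higher and 1 lower, Cyp4f15 at 0.66 ± 0.12 (adjusted p 0.0192), Por at 1.43 ± 0.30 (0.0452) and the alcohol dehydrogenase Adh1 at -0.72 ± 0.17 (0.0485). In females the list gave 0 of 18 in WT and 1 of 17 in KO, which was Por (0.79 ± 0.13, adjusted p 0.0398). Of all genes, 0.0785% and 0.125% passed there, and 13.7% and 2.6% in WT and KO males. Por was also higher in females than in males on the CD, from 71.9 ± 7.84 to 151 ± 50.8 CPM in WT (adjusted p 0.0197) and from 65.0 ± 17.8 to 146 ± 22.1 CPM in KO (0.00400).

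The next steps, activation and peroxisomal oxidation of dicarboxylic acids, are covered by 27 genes, of which 25 were tested. On the WD 12 were higher and 0 lower in WT males, and 8 higher and 0 lower in KO males, with list medians of 0.43 and 0.55 and medians over all genes of 0.01. In WT males they included the enoyl-CoA isomerase Eci2 (log2 change 1.01 ± 0.17, adjusted p 0.00566) and the thiolase Acaa1b (1.53 ± 0.25, 0.00716). In KO males Acaa1b rose by 1.40 ± 0.18 (0.00298), Acaa1a by 0.90 ± 0.17 (0.0192) and Ech1 by 0.69 ± 0.13 (0.0236). In females 0 of 25 passed on either genotype, with medians of 0.28 and 0.23. Of all genes tested, 0.0785% and 0.125% passed in WT and KO females, and 13.7% and 2.6% in WT and KO males. In a list of PPARα itself and other PPARα targets, 9 of 25 genes were higher, Ppara among them, and 2 lower in WT males. In KO males 7 of 25 were higher and 0 lower. In WT and KO females 0 of 25 and 0 of 24 passed, beside the same low shares of all genes. Ppara itself rose in WT males from 92.0 ± 11.3 to 164 ± 35.4 CPM (adjusted p 0.00704), as did Acadm and Slc25a20 (adjusted p 0.00570 and 0.0149). In KO males Angptl4 rose by 1.81 ± 0.16 (2.35e-04), Fitm1 by 2.32 ± 0.22 (2.73e-04) and Vnn1 by 2.85 ± 0.35 (0.00771).

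For the sex difference of the Cyp4a12 genes, the comparison lists were male- and female-predominant liver genes and the growth hormone axis, whose sex-specific pulses are known to set such genes. All 13 male-predominant genes were lower in females in 3 of the 4 comparisons and 12 of 13 in WT on the CD, while 15 to 17 of 17 female-predominant genes were higher. These lists were drawn up from knowledge of mouse liver with earlier results of these data known, and their direction is no independent evidence. Of the growth hormone list, Prlr, the prolactin receptor, and Cux2, a female-specific repressor of male-predominant genes, were higher in females in all 4 comparisons. On the WD in WT males, where the Cyp4a12 sum rose, 4 of 13 male-predominant genes rose and 0 fell (Ugt2b1, Slco1a1 and Cyp2d9, with adjusted p 0.00369, 0.0129 and 0.0287, lead them), and in KO males 0 rose and 1 fell, the steroid dehydrogenase Hsd3b5 (-1.18 ± 0.25, adjusted p 0.0427). Among all genes, 13.7% passed between the diets in WT males and 2.6% in KO males, so these counts stand against unlike shares. Adipocyte markers summed to 9.53 to 16.6 CPM in WT males on the CD and 16.04 to 68.9 on the WD. In KO males they summed to 6.30 to 8.97 and 37.7 to 104 CPM. Only 2 of these 7 markers passed the count filter in either genotype. The 1 called was Cfd, higher on the WD in both, so the sums do not stand for the list. The summed hepatocyte markers were 77660 to 91200 CPM in WT males on the CD and 68770 to 76880 on the WD, and 74530 to 100800 and 50280 to 77120 in KO males, with 1 of 8 higher and 1 lower in WT and 1 lower in KO. The part of either in the diet results was not tested. The summed Kupffer cell, endothelial, stellate, cholangiocyte and lymphocyte markers overlapped between the diets in males of both genotypes. In WT females the summed hepatocyte markers were 81300 to 98640 CPM on the CD and 68660 to 80990 on the WD, and the Kupffer cell markers 259 to 277 and 290 to 503 CPM, in both cases without overlap. In KO females the corresponding ranges overlapped, at 81410 to 101900 and 68030 to 85680 CPM for hepatocyte markers and 215 to 313 and 303 to 504 CPM for Kupffer cell markers. Their part in the results on Aldh3a2 was not tested.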

How the data were processed

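Estimated counts, TPM and effective lengths per transcript were deposited by the authors for 32 libraries of paired 50-base reads; their processing notes name Salmon 1.3.0, DESeq2 1.28.1 and GRCm38. Counts were summed by gene with GENCODE vM21 (115973 of 117135 transcripts; 0.315% to 0.424% of a library lay outside it) and rounded, and TPM were summed. Pairs of groups were fitted with edgeR 4.0.16 in R 4.3.3 (TMM, robust quasi-likelihood, at least 10 counts in at least 4 libraries), and differences of effects in a model of all 32 libraries, with adjusted p under 0.05 as the threshold. Fits without a library kept the genes tested. DESeq2 for the alternatives was 1.42.0. The edgeR steps were tested on simulated data. Replicate numbers did not pair the libraries (mean correlation of deviations 0.0113 for equal numbers, -0.00315 for others), and no 2 libraries of a group agreed within sampling noise (chi-square per gene at least 10.5). The members, gene lists and tests were chosen with earlier results of these data known. Genes named beside the members were, of each list, up to 3 called in a comparison, taken by p, and the 5 most alike; some of these are not reported here. The intervals of ratios are exact 95% binomial intervals.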

Additional observations from a re-analysis of the deposited data

Results flagged for a closer look

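Within a group of 4 libraries, 2 of 48 gene and group combinations had a library far from the other 3, by Dixon's criterion, which chance passes in about 5% of groups. Cyp4a31 read 12.56 CPM in WTF-WD replicate 4 against 6.62 to 7.05 CPM in the other 3 libraries (gap over range 0.929), and this library carried pancreas transcripts. Cyp4a32 read 14.13 CPM in WTM-CD replicate 4 against 8.36 to 8.66 CPM in the other 3 (0.947).

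The effect of the WD on Aldh3a2 differed between the sexes, the log2 value in females less that in males being -0.98 (edgeR adjusted p 0.00963). Its estimates were positive in both sexes of both genotypes, so that the difference is one of size.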

How the results depend on the processing

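Of the values recomputed under the planned and added alternatives, 814 kept their direction and their side of the threshold or stayed within the spread, 15 lost a call, 31 gained one, 28 moved and 2 reversed, and of those with 1 library left out 1308, 33, 5, 62 and 0 did so. With DESeq2 on gene sums the members called numbered 5 for the WD in KO males, 1 for KO against WT in females on either diet, 4 for females against males in WT on the CD and 3 for the diet effect in females less males. The same fits called 805 of 12407, 26 of 12753 and 62 of 12824, 595 of 12505 and 204 of 13539 genes in all. With DESeq2 and length offsets the last was 4 and that for KO against WT females 1 on either diet. The model of all 32 libraries gave 0 for the WD in KO females and 1 for the genotype in CD females. Replicate numbers did not pair the libraries, and with the replicate block the WD in KO females gave 0 and the genotype in CD females gave 1. Without the libraries with pancreas transcripts, an alternative chosen after seeing the data, the WD in WT females gave 1. With 1 library left out, the members called ranged from 0 to 1 for the WD in KO females and from 0 to 1 for the diet effect in KO less WT males, the latter being Cyp4a12a without WTM-CD replicate 2 (-1.51, adjusted p 0.0371). The summed count of Cyp4a10, Cyp4a31 and Cyp4a32 reversed the sign given by Cyp4a32 alone for females against males in WT on the WD (0.2367) and for KO against WT females over both diets (-0.3581), Cyp4a10 being most of that sum. Depth limits Cyp4a31 most, with 9 to 237 counts a library, and Cyp4a12 genes in females, with 0 to 5.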
